A study of Mus musculus with 8 samples.

Results

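Ion channel subunit genes were examined in mouse pro-B cells treated to degrade the transcription factor EBF1 and in control cells. Candidates were all genes whose names begin as potassium (Kcn), sodium (Scn), voltage-gated calcium (Cacn), TRP, CLC chloride (Clcn), store-operated calcium (Orai, Stim), purinergic P2X (P2rx), HCN or anoctamin (Ano) genes, and members were selected on their mean level, at least 0.5 exonic CPM over the 8 libraries (CPM scales each library's counts to the same total). The rule found 39 genes among 153 name matches, while 112 matches lay below the threshold and Scn4b and Scn2b were left out by name. In the whole series, 11872 of 47937 gene IDs reached the same level. Expression level therefore chose the members, and their presence is not a result. Just inside the threshold were Kcnj14 at 0.501, Cacna2d4 at 0.599 and Clcn1 at 1.14 CPM, and just outside were Kcnd1 at 0.379, Kcnab3 at 0.146 and Cacng7 at 0.131 CPM. Of the matches below it, 67 had no read in any library.

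The dTAG-13 group was 4 libraries from EBF1-dTAG_N cells given 0.5 µM dTAG-13 for 6 h, and the DMSO group was 4 libraries from the same kind of cells given the solvent. All 8 came from A-MuLV transformed pro-B cells, an early B-lineage stage immortalized by the Abelson leukaemia virus, in which a modified exogenous EBF1 stood in for the endogenous protein. The small molecule dTAG-13 leads to degradation of proteins that carry the dTAG degron, and the question is how RNA levels shift within hours of EBF1 loss. Libraries with untagged EBF1 were not analysed here, so effects of the compound and of EBF1 loss cannot be told apart. The titles give the DMSO libraries as 0 h, whereas their treatment label reads 6 h. The design text calls the libraries biological replicates without saying how the cultures were separated. The p-values weigh the group difference against the spread of these libraries within groups, and their independence is not known.

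Ion channels are membrane proteins that let selected ions cross along their gradients. Pore-forming subunits make the conducting path, and accessory subunits set its trafficking and gating. In lymphocytes, antigen receptor signals empty the calcium store of the endoplasmic reticulum (ER), STIM proteins sense the loss and open ORAI pores in the plasma membrane, and potassium channels keep the membrane voltage that drives calcium in. Many other channel genes are best known from neurons and muscle.

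Exonic depth lay between 28982316 and 38999496 reads per library, and intronic reads, taken as whole-gene minus exonic counts, made up 20.4 to 27.3% of whole-gene reads. CPM values below are scaled by TMM library factors, and fold changes are dTAG-13 over DMSO from edgeR, with Benjamini-Hochberg adjusted p-values over all genes tested and a threshold of 0.05. DMSO replicate 1 stood apart from the other DMSO libraries on the second principal component of exonic counts. Ebf1 RNA itself averaged 767 ± 38.5 CPM in dTAG-13 libraries and 623 ± 13.9 CPM in DMSO libraries (SD, n = 4 each). Whether these reads came from the endogenous gene or from the exogenous EBF1 was not tested, and RNA does not show the EBF1 protein level. Of 18 pro-B markers, 17 reached 1 CPM in at least 1 library and Kit was at 0 throughout. The summed pro-B marker level was 5156 to 5472 CPM in dTAG-13 and 5812 to 5981 CPM in DMSO libraries. None of 9 T-cell and none of 9 myeloid markers reached 1 CPM. The T-cell list summed to 0.204 to 0.657 CPM in dTAG-13 and 0.183 to 0.587 CPM in DMSO libraries. The myeloid list summed to 0.485 to 1.12 CPM in dTAG-13 and 0.162 to 0.449 CPM in DMSO libraries. Of 9 neuronal and glial markers Tubb3 alone reached 1 CPM, and Olig2, Rbfox3, Stmn2 and Syt1 were at 0. That list summed to 345 to 355 CPM in dTAG-13 and 237 to 260 CPM in DMSO libraries, and its part in the results for neuronal channel genes was not tested. The 9 stromal markers, of which Pecam1 alone reached 1 CPM, summed to 93.9 to 99.2 CPM in dTAG-13 and 63.8 to 68.7 CPM in DMSO libraries. The 9 erythroid and megakaryocyte markers, of which Itga2b alone did, summed to 0.870 to 1.71 CPM in dTAG-13 and 1.80 to 2.49 CPM in DMSO libraries. Of 9 muscle markers Acta1 alone reached 1 CPM, and Ckm and Myod1 were at 0. In bulk RNA, fewer cells of a type and less RNA per cell cannot be told apart.

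After dTAG-13, 8 of the 39 members (20.5%) were lower and 12 (30.8%) were higher in exonic counts, 51.3% in all. Among all 12889 genes tested, 28.3% were called, 14% lower and 14.3% higher, and among genes that also reached 0.5 mean exonic CPM 30.2% were called, 15% lower and 15.2% higher. The median log2 fold change was 0.05 for the members and -0.0030 for all genes tested, and the median absolute value was 0.23 for the members and 0.13 for all genes tested. The groups did not overlap in 20 members, 19 of them called, against 27.7% of all genes tested. The fall was steepest in the potassium channel gene Kcnh4, followed by the calcium channel β subunit gene Cacnb1 and the ATP-gated channel gene P2rx3. The largest rise with separate groups was that of the modifier potassium subunit gene Kcns1, followed by the sodium channel gene Scn4a, the T-type calcium channel gene Cacna1i and the TRP channel gene Trpv2. Tested against a change of 1.5-fold (edgeR glmTreat, adjusted p below 0.05), 4 members remained, Kcnh4, Cacnb1, P2rx3 and Kcns1, against 3.13% of all genes tested. In GENCODE vM21 on GRCm38 these protein-coding genes lie at chr11:100740376-100759942 (Kcnh4), chr11:98001508-98023034 (Cacnb1), chr2:84998583-85037462 (P2rx3) and chr2:164163619-164171113 (Kcns1), each on the minus strand.

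**Figure D1:**
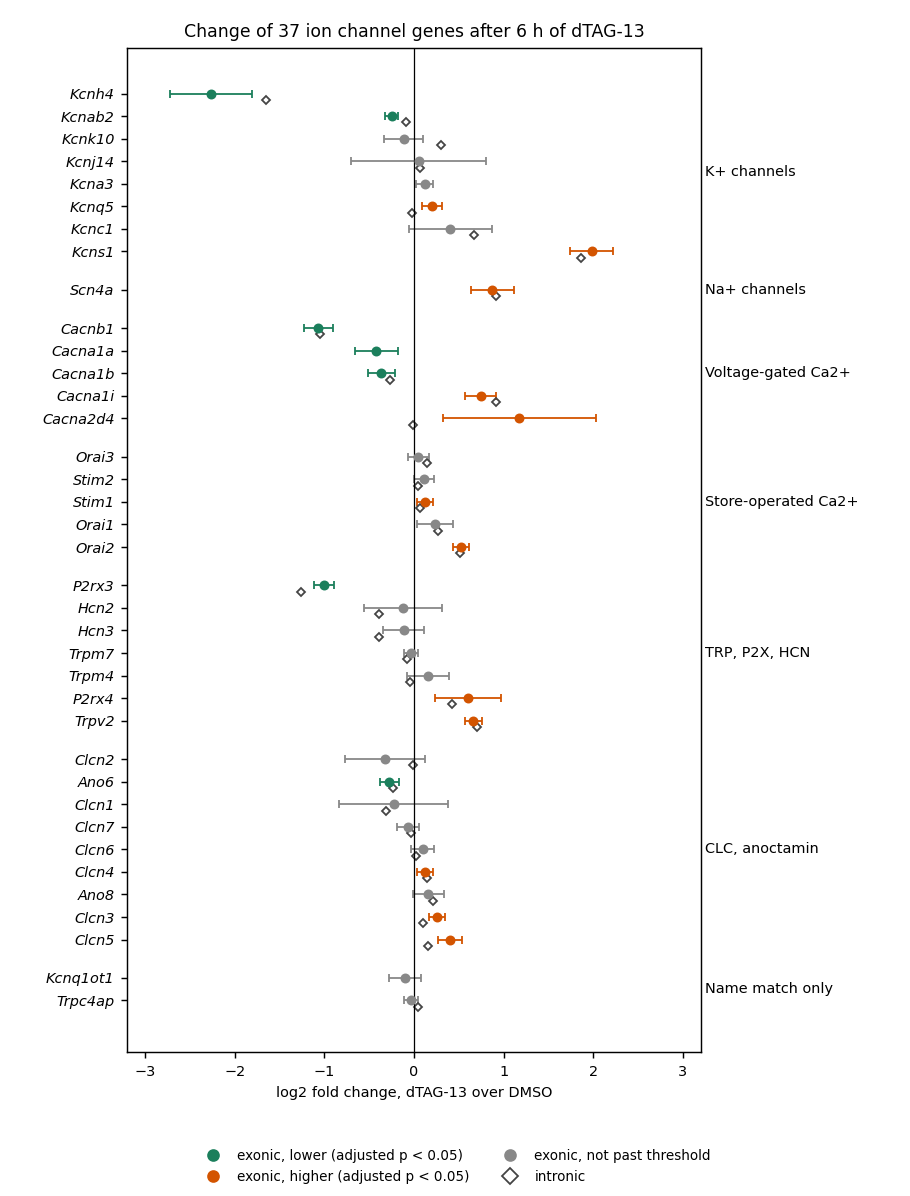
Exonic log2 fold change, dTAG-13 over DMSO, of 37 of the 39 genes by channel family (circles, bars give 95% confidence intervals, n = 4 libraries per group) with the intronic value as a diamond where it was tested. Kcnh4 at -2.27 and Kcns1 at 1.98 lie farthest from 0, and 18 genes in grey did not pass the threshold.

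Upstream sequences of the 4 members that anchor the potassium and calcium channel results are given here, because the comparison concerns a factor that binds DNA. They are the 250 bases before the annotated start in RefSeq on GRCm38.p6, 5′ to 3′ on the strand of the gene, and capitals mark matches to CCCNNGGG, the inner part of the palindromic EBF1 core motif. The Kcnh4 window lies at chr11:100759779-100760028 and the Cacnb1 window at chr11:98022628-98022877, each on the minus strand. The Kcns1 window lies at chr2:164171114-164171363 on the minus strand and the Cacna1i window at chr15:80286988-80287237 on the plus strand. By the GENCODE coordinates above, the Cacnb1 window lies wholly inside its gene. The Kcnh4 window lies partly inside its gene, match included. Cacnb1 has another RefSeq window, at chr11:98018373-98018622, which is not shown and holds no match.
Kcnh4: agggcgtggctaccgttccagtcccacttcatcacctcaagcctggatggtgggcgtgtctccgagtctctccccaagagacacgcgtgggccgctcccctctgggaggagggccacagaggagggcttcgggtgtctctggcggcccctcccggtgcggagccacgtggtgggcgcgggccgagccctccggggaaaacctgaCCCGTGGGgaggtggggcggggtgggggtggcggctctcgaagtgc
Cacnb1: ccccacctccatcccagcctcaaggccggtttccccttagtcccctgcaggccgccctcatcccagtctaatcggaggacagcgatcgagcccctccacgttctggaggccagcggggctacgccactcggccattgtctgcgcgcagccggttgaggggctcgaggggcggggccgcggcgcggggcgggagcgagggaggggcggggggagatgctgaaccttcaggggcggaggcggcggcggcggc
Kcns1: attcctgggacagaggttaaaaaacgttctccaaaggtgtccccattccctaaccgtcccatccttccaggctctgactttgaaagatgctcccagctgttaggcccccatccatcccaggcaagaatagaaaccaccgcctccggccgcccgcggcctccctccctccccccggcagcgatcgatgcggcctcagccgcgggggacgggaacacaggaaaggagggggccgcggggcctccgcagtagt
Cacna1i: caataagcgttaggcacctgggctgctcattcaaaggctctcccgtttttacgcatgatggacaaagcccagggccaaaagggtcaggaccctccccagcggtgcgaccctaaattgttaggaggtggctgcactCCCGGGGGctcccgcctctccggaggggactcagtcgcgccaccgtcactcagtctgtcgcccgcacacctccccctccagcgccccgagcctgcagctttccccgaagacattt
The full core of 10 letters, searched on both strands, matched 0 of 41 windows of the 30 members that had one, and 0.903% of windows of genes tested in exons. The inner CCCNNGGG of 8 letters, which every full core contains, matched 29.3% of member windows, 15.3% of windows of genes tested and 11.8% of all 32851 windows. It was in 2 of 8 windows of lower members, 4 of 17 of higher members and 6 of 16 of the others. The match in Kcnh4 began 46 bases before the RefSeq start and that in Cacna1i 115 bases before it. All fixed letters of CCCNNGGG are C or G, and the sets of windows were not matched for base composition. Member windows held from 39.2% (a Clcn3 window) to 78.4% (Stim1) G and C. Its part in the shares of windows with a match was not tested. These are matches of letters in short windows, and binding was not measured.

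Potassium channel genes were 10 of the members, with 3 lower, 2 higher and 5 not past the threshold, where 14% of all genes tested were lower and 14.3% higher. Kcnh4, a voltage-gated pore subunit of the EAG superfamily known mainly from brain, had 0.626, 1.1, 0.987 and 0.629 exonic CPM in dTAG-13 libraries, against 4.42, 3.38, 4.51 and 3.89 CPM in DMSO libraries. Every dTAG-13 library lay below every DMSO library. Kcnh4 fell by 2.27 ± 0.22 (SE) on the log2 scale, 4.82-fold, with an edgeR adjusted p of 4.66e-09. Its level was low in both groups, at 0.211 CPM per kb of exon in dTAG-13 and 1.03 CPM per kb in DMSO libraries.

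Kcns1 encodes an electrically silent subunit that conducts only when joined to other voltage-gated potassium channel subunits. It had 13.5, 10.9, 14.1 and 13.7 exonic CPM in dTAG-13 libraries, against 3.32, 3.38, 3.73 and 2.79 CPM in DMSO libraries. The groups were far apart. Kcns1 rose by 1.98 ± 0.12 on the log2 scale, 3.95-fold (edgeR adjusted p = 3.02e-13).

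The lymphocyte channel Kv1.3 is made by Kcna3, and Kcnab2 encodes a cytoplasmic β subunit of that channel family. Kcnab2 had 175, 167, 171 and 161 exonic CPM in dTAG-13 libraries, against 205, 203, 192 and 202 CPM in DMSO libraries. The groups did not overlap, and Kcnab2 fell by 0.25 ± 0.04 on the log2 scale (edgeR adjusted p = 6.4e-06). Kcna3 averaged 72.1 ± 3.67 CPM in dTAG-13 and 66.4 ± 3.70 CPM in DMSO libraries, with overlapping groups and a log2 fold change of 0.12 (95% interval 0.02 to 0.21, edgeR adjusted p = 0.0595). These 2 genes had the highest levels per kb of exon among the members, at 30.2 CPM per kb for Kcnab2 and 37.9 for Kcna3 in dTAG-13 libraries, against 36.0 and 34.9 in DMSO libraries. In part of its length Kcnab2 overlaps Nphp4 on the opposite strand and the noncoding Gm16334 on its own strand, and neither passed the exonic threshold.

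Kcnq5, a pore subunit of slow M-type currents, averaged 44.5 ± 1.98 CPM in dTAG-13 and 38.7 ± 2.69 CPM in DMSO libraries, a rise of 0.20 ± 0.05 on the log2 scale (edgeR adjusted p = 0.00435). In whole-gene counts its log2 fold change was -0.027, and 94.6 ± 1.1% of its reads in dTAG-13 and 95.5 ± 0.652% in DMSO libraries were intronic. Kcnc1, Kcnj14 and Kcnk10 did not pass the exonic threshold.

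Scn4a, the pore subunit of the voltage-gated sodium channel of skeletal muscle, had 8, 9.87, 8.88 and 10.1 exonic CPM in dTAG-13 libraries, against 5.11, 5.11, 5.43 and 4.46 CPM in DMSO libraries. All dTAG-13 libraries were above all DMSO libraries. Scn4a rose by 0.88 ± 0.11 on the log2 scale, 1.83-fold (edgeR adjusted p = 8.19e-07). It was at 1.31 CPM per kb of exon in dTAG-13 and 0.714 CPM per kb in DMSO libraries. The muscle marker genes Ckm and Myod1 were at 0 in every library, and the muscle list summed to 0.816 to 1.20 CPM in dTAG-13 and 0.484 to 1.03 CPM in DMSO libraries.

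The 5 voltage-gated calcium channel genes all passed the threshold, 3 lower and 2 higher, where 28.3% of all genes tested were called. Of the higher genes, Cacna2d4 had overlapping groups and lost its call in 7 of 14 alternatives, and the other 4 count 3 lower and 1 higher. Cacnb1 encodes a cytosolic β subunit that brings high-voltage-activated pores to the membrane. It had 14.8, 17.1, 15.3 and 16.3 exonic CPM in dTAG-13 libraries, against 28.4, 31.7, 38.9 and 33.9 CPM in DMSO libraries. The groups were separate, and Cacnb1 fell by 1.07 ± 0.08 on the log2 scale, 2.10-fold (edgeR adjusted p = 1.75e-11). Pores of that class are encoded by Cacna1a (P/Q-type) and Cacna1b (N-type), which are known mainly from nerve terminals. Cacna1b had 21.3, 25.0, 23.7 and 29.0 CPM in dTAG-13 libraries, against 30.3, 31.1, 34.5 and 31.3 CPM in DMSO libraries. The nearest pair, dTAG-13 replicate 4 and DMSO replicate 1, lay close together, and Cacna1b fell by 0.37 ± 0.07 on the log2 scale (adjusted p = 0.000244). Cacna1a had 5.55, 5.97, 6.05 and 5.40 CPM in dTAG-13 libraries, against 8.36, 6.87, 8.71 and 6.79 CPM in DMSO libraries. Again no library of a group entered the range of the other, and Cacna1a fell by 0.42 ± 0.12 on the log2 scale (adjusted p = 0.00711). Of Cacna1a reads, 1.26 ± 1.92% in dTAG-13 and 0.174 ± 0.205% in DMSO libraries were intronic, while the median over all genes tested was 21.3%.

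Cacna1i encodes a T-type pore, which opens near the resting voltage without a β subunit. It had 17.6, 19.0, 20.2 and 20.9 exonic CPM in dTAG-13 libraries, against 13, 9.98, 12 and 11.4 CPM in DMSO libraries. The groups did not overlap. Cacna1i rose by 0.75 ± 0.08 on the log2 scale, 1.68-fold (edgeR adjusted p = 6.2e-08). Per kb of exon, Cacna1i was at 1.97 CPM in dTAG-13 and 1.17 CPM in DMSO libraries, and Cacna1b was at 2.49 CPM in dTAG-13 and 3.2 CPM in DMSO libraries.

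Cacna2d4, which encodes an extracellular α2δ accessory subunit, had 0.490, 0.791, 0.961 and 1.09 CPM in dTAG-13 libraries, against 0.104, 0.311, 0.626 and 0.379 CPM in DMSO libraries. The groups overlapped in dTAG-13 replicate 1 and DMSO replicate 3. The DMSO mean, 0.355 CPM, lay below the threshold of the rule, so this gene became a member through its level in dTAG-13 libraries, 0.832 CPM. Its fitted rise of 1.18 ± 0.41 on the log2 scale (edgeR adjusted p = 0.0338) did not pass in whole-gene counts (adjusted p = 0.108). It was also lost without DMSO replicate 1 (0.111), 2 (0.0817) or 4 (0.0663) and without dTAG-13 replicate 2 (0.0610), 3 (0.0890) or 4 (0.104), and the adjusted p ran from 0.0111 to 0.111 over 14 alternatives. Without Cacna2d4 the members count 8 lower and 11 higher of 38.

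**Figure D2:**
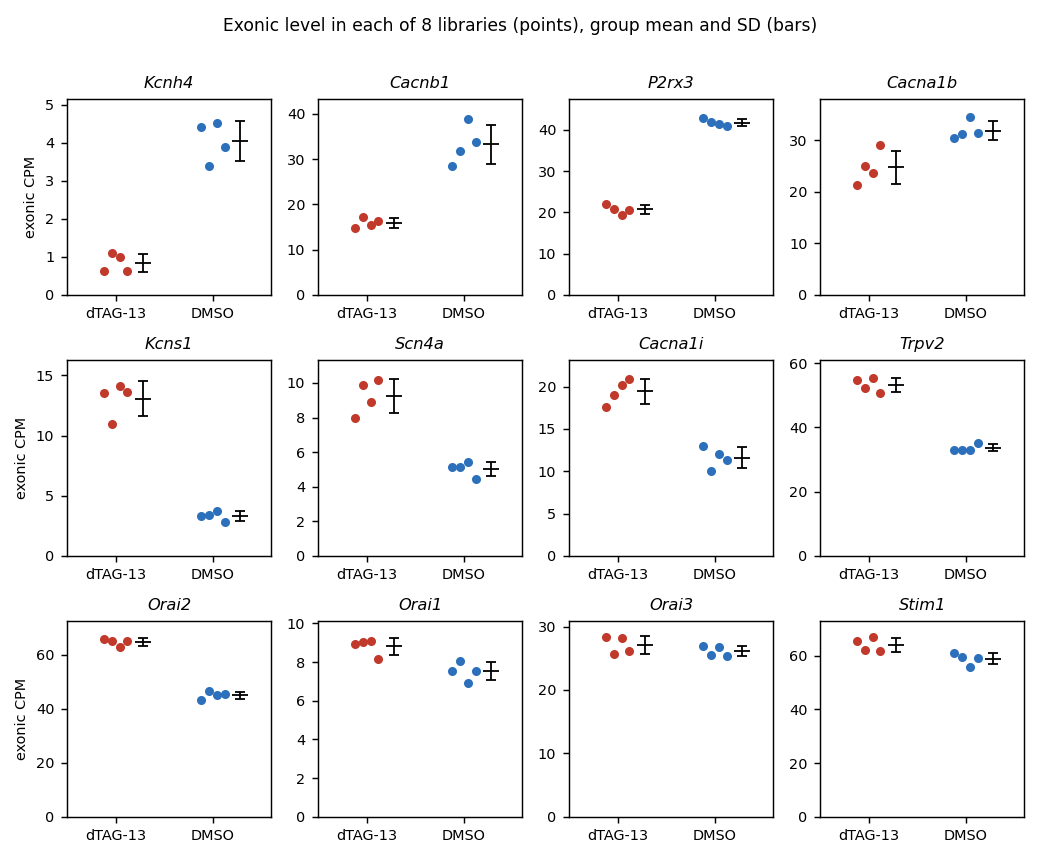
Exonic CPM of 12 of the genes in each library (points, dTAG-13 in red left of DMSO in blue, linear axes from 0), with the mean and SD of each group as bars. Kcnh4, Cacnb1, P2rx3, Kcns1, Scn4a, Cacna1i, Trpv2 and Orai2 show a clear gap between groups, whereas Orai3 overlaps.

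The store-operated pathway had 5 members, of which Orai2 and Stim1 were higher, where 14.3% of all genes tested were higher. The Stim1 call was lost in 6 of 14 alternatives. Orai2 encodes a pore subunit that can join ORAI1 in the channel. It had 65.8, 64.9, 62.8 and 65.1 exonic CPM in dTAG-13 libraries, against 43.1, 46.4, 45.1 and 45.3 CPM in DMSO libraries. The spread within each group was small beside the gap between them, and Orai2 rose by 0.52 ± 0.04 on the log2 scale, 1.44-fold (edgeR adjusted p = 1.28e-10). Orai1, the gene of the main pore subunit, had 8.95, 9.06, 9.11 and 8.15 CPM in dTAG-13 libraries, against 7.53, 8.08, 6.94 and 7.52 CPM in DMSO libraries. The groups were separate by a narrow margin, and the log2 fold change of 0.23 ± 0.10 did not pass (adjusted p = 0.0863). Orai3 averaged 27.0 ± 1.40 CPM in dTAG-13 and 26.2 ± 0.843 CPM in DMSO libraries, a log2 fold change of 0.05 with a 95% interval of -0.07 to 0.17 (adjusted p = 0.605). Per kb of exon, Orai2 was at 10.6 CPM, Orai3 at 12.6 CPM and Orai1 at 3.84 CPM in dTAG-13 libraries, against 7.40, 12.2 and 3.28 CPM in DMSO libraries.

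Stim1 and Stim2 encode the calcium sensors of the ER. Stim1 had 65.5, 62.2, 66.9 and 61.5 exonic CPM in dTAG-13 libraries, against 61.0, 59.6, 55.8 and 59.2 CPM in DMSO libraries. The lowest dTAG-13 library was just above the highest DMSO library, and Stim1 rose by 0.12 ± 0.04 on the log2 scale (edgeR adjusted p = 0.037). This call was lost in whole-gene counts (adjusted p = 0.28) and without DMSO replicate 2 (0.0504), 3 (0.147) or 4 (0.0686) or dTAG-13 replicate 1 (0.0735) or 3 (0.122), within a range of 0.0186 to 0.28 over 14 alternatives. Stim2, the more sensitive of these sensors, averaged 37.7 ± 1.19 CPM in dTAG-13 and 34.9 ± 2.11 CPM in DMSO libraries, with a log2 fold change of 0.11 ± 0.05 that did not pass (adjusted p = 0.121). Without DMSO replicate 1 it did pass (0.0369), in a range of 0.0369 to 0.591 over 14 alternatives.

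The ATP-gated P2X receptors gave calls in opposite directions. P2rx3, known for its role in sensory neurons, had 22.1, 20.9, 19.4 and 20.6 exonic CPM in dTAG-13 libraries, against 42.8, 41.9, 41.5 and 40.9 CPM in DMSO libraries. The groups were tight and widely separate. P2rx3 fell by 1.01 ± 0.05 on the log2 scale, 2.01-fold (edgeR adjusted p = 3.56e-14). It shares 229 bases with Ssrp1 on the opposite strand, and Ssrp1 averaged 269 ± 14 CPM in dTAG-13 and 298 ± 10.6 CPM in DMSO libraries, a log2 fold change of -0.15. P2rx4, known from macrophages and from lysosomes, had 3.81, 5.15, 3.40 and 3.63 CPM in dTAG-13 libraries, against 2.14, 2.56, 2.87 and 2.92 CPM in DMSO libraries. The groups did not overlap, dTAG-13 replicate 2 was the highest library, and P2rx4 rose by 0.60 ± 0.18 on the log2 scale (adjusted p = 0.0106). Without dTAG-13 replicate 2 the log2 fold change was 0.45 and the call was lost (adjusted p = 0.0735, in a range of 0.00496 to 0.0735 over 14 alternatives). Per kb of exon, P2rx3 was at 7.45 CPM in dTAG-13 and 15 CPM in DMSO libraries, and P2rx4 at 0.569 CPM in dTAG-13 and 0.373 CPM in DMSO libraries.

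Of 3 TRP channel genes, Trpv2 was called, where 28.3% of all genes tested were called. Trpv2 encodes a calcium-permeable cation channel found in many immune cells. It had 54.7, 52.3, 55.4 and 50.8 exonic CPM in dTAG-13 libraries, against 33.1, 33.1, 33.1 and 35.3 CPM in DMSO libraries. Every dTAG-13 library was well above every DMSO library, and Trpv2 rose by 0.66 ± 0.05 on the log2 scale, 1.58-fold (edgeR adjusted p = 9.5e-12). Trpm7, a magnesium- and calcium-permeable channel fused to a kinase, averaged 124 ± 5.10 CPM in dTAG-13 and 127 ± 3.26 CPM in DMSO libraries, with a 95% interval of -0.12 to 0.04 on the log2 scale. Trpm4, a calcium-activated channel for monovalent cations, and the pacemaker channel genes Hcn2 and Hcn3 did not pass the threshold.

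Among the 7 CLC genes, Clcn3, Clcn4 and Clcn5 were higher and Clcn1, Clcn2, Clcn6 and Clcn7 did not pass, where 14.3% of all genes tested were higher. In introns edgeR and DESeq2 each called 0 of the 7 CLC genes, with 0 at an unadjusted p below 0.05 in either tool. Of all genes tested in introns, edgeR called 16.8%, with 8.26% higher. Intronic log2 fold changes were 0.15 ± 0.10 for Clcn5, 0.10 ± 0.07 for Clcn3 and 0.15 ± 0.12 for Clcn4. The edgeR test of the exonic minus intronic difference passed for none of these genes (adjusted p = 0.603, 0.661 and 0.975). A rise limited to exons is therefore not shown. The products of Clcn3, Clcn4 and Clcn5 form a close subgroup of chloride-proton exchangers of endosomes. Clcn5 averaged 23.8 ± 1.47 CPM in dTAG-13 and 18.0 ± 0.742 CPM in DMSO libraries and rose by 0.40 ± 0.07 on the log2 scale (edgeR adjusted p = 2.61e-05). Clcn3 averaged 109 ± 1.37 CPM in dTAG-13 and 90.9 ± 5.82 CPM in DMSO libraries and rose by 0.26 ± 0.04 (adjusted p = 2.35e-05). Clcn4 averaged 63.5 ± 0.945 CPM in dTAG-13 and 58.3 ± 2.93 CPM in DMSO libraries and rose by 0.12 ± 0.04 (adjusted p = 0.0346). The Clcn4 call was lost in whole-gene counts (adjusted p = 0.0639) and without DMSO replicate 1 (0.152) or 3 (0.0847) or dTAG-13 replicate 1 (0.0630) or 3 (0.0663), within a range of 0.0234 to 0.152 over 14 alternatives. The lysosomal exchanger gene Clcn7 averaged 40.9 ± 3.02 CPM in dTAG-13 and 42.9 ± 3.98 CPM in DMSO libraries.

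Ano6, which encodes a calcium-activated scramblase that exposes phosphatidylserine, had 43.3, 37.0, 37.6 and 37.3 exonic CPM in dTAG-13 libraries, against 44.0, 47.4, 48.0 and 48.4 CPM in DMSO libraries. dTAG-13 replicate 1 lay close to DMSO replicate 1, and the groups did not overlap. Ano6 fell by 0.28 ± 0.05 on the log2 scale (edgeR adjusted p = 0.000176). Ano8, which tethers the ER to the plasma membrane, averaged 19.4 ± 1.26 CPM in dTAG-13 and 17.5 ± 2.45 CPM in DMSO libraries and did not pass. The list also caught 2 genes by name alone, the noncoding RNA Kcnq1ot1 and the ubiquitin-ligase adaptor gene Trpc4ap, and neither passed.

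**Figure D3:**
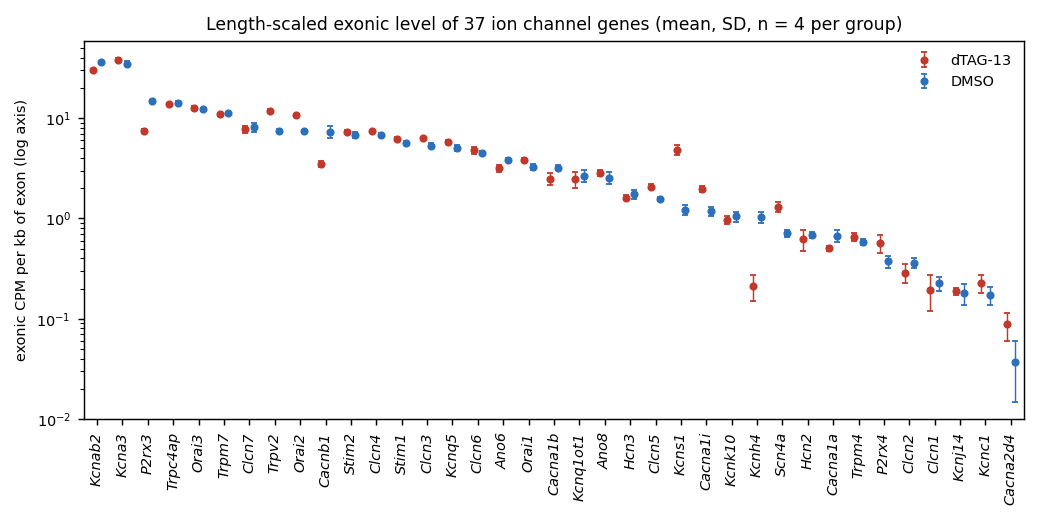
Exonic CPM per kb of annotated exon of 37 of the 39 genes (mean and SD, n = 4 libraries per group, dTAG-13 in red left of DMSO in blue), on a log axis and ordered by the DMSO level. Levels run from 36.0 CPM per kb for Kcnab2 to 0.0374 for Cacna2d4 in DMSO libraries.

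Intronic reads come mostly from unspliced RNA and gave a second readout of the same libraries. Of 35 members with enough intronic reads to test, 5 were lower and 5 higher, against 16.8% of 11229 genes called in introns, 8.5% lower and 8.26% higher. The lower members were Kcnh4, Cacnb1, P2rx3, Cacna1b and Ano6, and the higher ones Kcns1, Trpv2, Cacna1i, Orai2 and Kcnk10. The 9 other than Kcnk10 were called in the same direction in exons. The intronic groups were separate in 11 members, against 19.5% of all genes tested in introns. Kcna3, Kcnq1ot1 and Cacna1a were among the 4 members with too few intronic reads. The annotated exons of Kcna3 and Kcnq1ot1 cover the whole gene in GENCODE, so these genes have no annotated intron to count.

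P2rx3 had 68.2, 76.1, 70.8 and 70.5 intronic CPM in dTAG-13 libraries, against 165, 170, 180 and 171 CPM in DMSO libraries. The groups were widely separate, and the intronic level fell by 1.26 ± 0.06 on the log2 scale (edgeR adjusted p = 2.7e-13). Cacnb1 had 30.2, 31.7, 31.0 and 30.3 intronic CPM in dTAG-13 libraries, against 63.5, 65.0, 67.5 and 58.4 CPM in DMSO libraries. Its intronic fall of 1.05 ± 0.08 (adjusted p = 1.12e-09) was near the exonic fall of 1.07. Cacna1i had 65.8, 74.8, 72.6 and 68.6 intronic CPM in dTAG-13 libraries, against 36.9, 35.4, 35.4 and 41.3 CPM in DMSO libraries. Here too the groups were separate, with a rise of 0.92 ± 0.08 (adjusted p = 9.9e-09). Kcnh4 had 0.725, 2.38, 2.06 and 1.59 intronic CPM in dTAG-13 libraries, against 6.01, 6.08, 6.13 and 3.39 CPM in DMSO libraries. No dTAG-13 library reached the lowest DMSO library, and the intronic level fell by 1.65 ± 0.33 (adjusted p = 0.000756). Kcns1 had 6.94, 7.21, 6.45 and 6.14 intronic CPM in dTAG-13 libraries, against 1.13, 2.98, 2.07 and 1.22 CPM in DMSO libraries. All dTAG-13 libraries were above all DMSO libraries, with a rise of 1.86 ± 0.30 (adjusted p = 4.5e-05). Trpv2 averaged 49.0 intronic CPM in dTAG-13 and 30.1 CPM in DMSO libraries, a log2 fold change of 0.70 (adjusted p = 6.49e-06). Orai2 averaged 113 intronic CPM in dTAG-13 and 78.8 CPM in DMSO libraries, a log2 fold change of 0.51 (adjusted p = 1.55e-05).

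Kcnk10 encodes a background potassium channel of the TREK group. It had 251, 293, 228 and 269 intronic CPM in dTAG-13 libraries, against 205, 200, 240 and 197 CPM in DMSO libraries. DMSO replicate 3 lay above dTAG-13 replicate 3, and the intronic log2 fold change was 0.31 ± 0.08 (edgeR adjusted p = 0.00592). Its exonic level averaged 8.50 ± 0.844 CPM in dTAG-13 and 9.19 ± 1.03 CPM in DMSO libraries, a log2 fold change of -0.12 that did not pass. Of Kcnk10 reads 90.1% in dTAG-13 and 87.6% in DMSO libraries were intronic. It was among 3 members with over 80% intronic reads, with Kcnq5 and Kcnj14, while 4.03% of all genes tested had such a share. Kcnk10 shares 3518 bases with 5330409N07Rik on its own strand, for which no level was available. Kcnq5 shares bases on its own strand with Gm38243 and Gm36949, at 4.37 and 1.27 mean exonic CPM. The part of these transcripts in the intronic reads was not tested. The median intronic share was 33.1% over the members and 21.3% over all genes tested.

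Whether the exonic change differed from the intronic change was tested as an interaction in edgeR. None of 35 members passed (0 of 35, with 5 at an unadjusted p below 0.05), against 0.289% of 10026 genes, and no other tool was run on this difference. Kcnk10 came nearest, with an exonic minus intronic log2 difference of -0.42 ± 0.10 (adjusted p = 0.0828). It passed without dTAG-13 replicate 1, at -0.51 (adjusted p = 0.0383), in a range of 0.00495 to 0.301 over 11 alternatives. The next were P2rx3 at 0.26 ± 0.08 (adjusted p = 0.334), Kcnq5 at 0.22 (0.537), Clcn5 at 0.24 (0.603) and Kcnab2 at -0.16 (0.608).

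**Figure D4:**
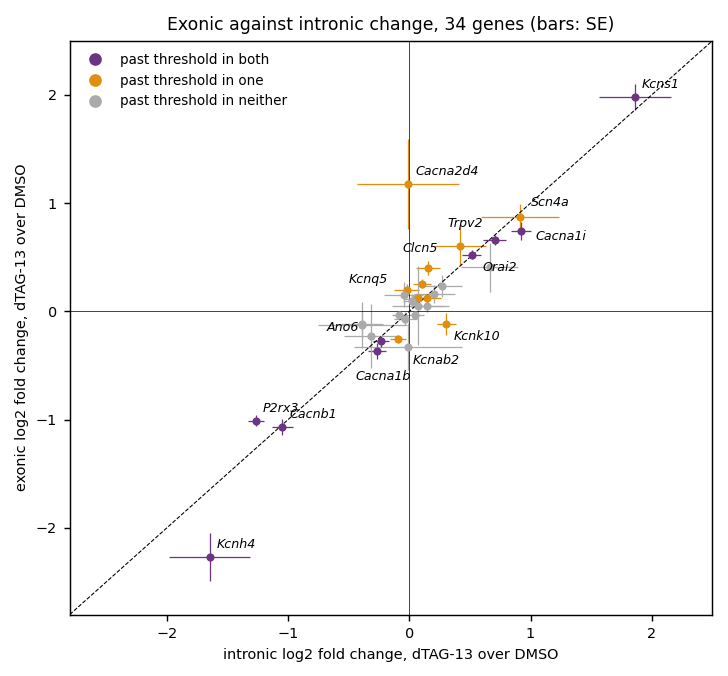
Exonic against intronic log2 fold change, dTAG-13 over DMSO, of 34 of the 35 genes tested in both read classes (points, bars give the SE, n = 4 libraries per group), with a dashed line of equal change. Kcnh4, Cacnb1 and P2rx3 lie at the lower left and Kcns1 at the upper right, Kcnh4 lies below the line (exonic -2.27, intronic -1.65), and Cacna2d4 lies above it with wide bars.

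Genes that work beside these channels were counted from 3 further lists. Of 40 tested genes of other channel families, 2 were lower and 12 higher, with a median log2 fold change of 0.08, where 14% of all genes tested were lower and 14.3% higher. In introns 3 of 44 were lower and 6 higher, where 8.5% of all genes tested were lower and 8.26% higher. Tmc8, a transmembrane channel-like gene of lymphocytes, averaged 50.3 ± 1.39 CPM in dTAG-13 and 28.2 ± 0.598 CPM in DMSO libraries, a log2 rise of 0.83 (edgeR adjusted p = 9.05e-14). Tpcn1, a cation channel gene of endolysosomes, rose by 0.66 (adjusted p = 1.15e-11), with 55.1 ± 1.95 CPM in dTAG-13 and 34.8 ± 1.69 CPM in DMSO libraries. Clic4 rose by 0.40 and Gria2, an AMPA-type glutamate receptor gene, by 0.75, whereas Lrrc8c, a subunit gene of volume-regulated anion channels, fell by 0.34. Hvcn1, the voltage-gated proton channel gene of B cells, was picked out after its values were seen. It had 3.35, 3.01, 2.67 and 2.97 CPM in dTAG-13 libraries, against 0.898, 1.35, 0.522 and 0.757 CPM in DMSO libraries, separate groups and a rise of 1.79 ± 0.25 on the log2 scale (adjusted p = 1.92e-06).

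Of 57 tested calcium signalling genes (pumps, release channels, sensors and calcium-dependent enzymes), 19 were lower and 14 higher, with a median log2 fold change of -0.0022, where 14% of all genes tested were lower and 14.3% higher. In introns 16 of 57 were lower and 5 higher, with a median of -0.065, where 8.5% of all genes tested were lower and 8.26% higher. The 5 with the smallest p were all lower. Camk2b, a calmodulin-dependent kinase gene, averaged 54.1 ± 0.975 CPM in dTAG-13 and 145 ± 5 CPM in DMSO libraries and fell by 1.42 on the log2 scale (edgeR adjusted p = 2.1e-20). Camk2d, of the same kinase family, averaged 219 ± 9.27 CPM in dTAG-13 and 528 ± 11.7 CPM in DMSO libraries and fell by 1.27 (adjusted p = 7.71e-20). Itpr3, a receptor for inositol trisphosphate that releases calcium from the ER, averaged 255 ± 2.68 CPM in dTAG-13 and 407 ± 7.17 CPM in DMSO libraries and fell by 0.67 (adjusted p = 6.99e-15). Lrmp, an ER membrane protein gene of lymphocytes, fell by 0.97, and Plcg1, a phospholipase gene that makes inositol trisphosphate, fell by 0.61.

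Of 19 tested genes that set sodium and potassium gradients or regulate their carriers, 3 (15.8%) were lower and 5 (26.3%) higher, where 14% of all genes tested were lower and 14.3% higher. In introns 3 of 18 were lower and 2 higher, where 8.5% of all genes tested were lower and 8.26% higher. The sodium pump subunit gene Atp1b3 averaged 675 ± 36.1 CPM in dTAG-13 and 772 ± 12.8 CPM in DMSO libraries and fell by 0.19 on the log2 scale (edgeR adjusted p = 0.000136). The pump regulator gene Fxyd5 averaged 27.2 ± 0.824 CPM in dTAG-13 and 16.9 ± 2.89 CPM in DMSO libraries and rose by 0.69 (adjusted p = 3.33e-07). Slc9a3r1, a scaffold gene for transporters, rose by 0.36, while the potassium-chloride cotransporter gene Slc12a7 fell by 0.34 and the ubiquitin ligase gene Nedd4 by 0.26.

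The authors' deposited table, made with another tool from the same 8 libraries, gave the same call for all 39 members, 8 lower and 12 higher. Their calls are therefore no independent support. In the authors' deposited table the exonic log2 fold change was -2.23 for Kcnh4, -1.05 for Cacnb1, -1.002 for P2rx3 and 1.97 for Kcns1. For Cacna2d4 it was 0.661 with a standard error of 0.678, against 1.18 from edgeR and 1.20 from DESeq2 here. The Cacna2d4 adjusted p was nevertheless 0.041 both in the deposited table and in DESeq2 here. Deposited fold changes may have been shrunk toward no change, which the sources used here do not state. Their sizes are therefore not directly comparable with those given here. Overlap of annotations limits single values, since 26 members share bases with another gene, 5 of them on the same strand.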

How the data were processed

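Stranded libraries were prepared from total RNA with a kit that removes ribosomal RNA, per the labels' protocols. Raw counts per gene, for exons and for whole genes, are the tables the authors deposited. The tools STAR 2.7.4a, featureCounts, Subread 2.0.0, SAMtools 1.10, DESeq2 and deepTools 3.3.2 and the builds mm10 and GRCm38.p4 appear in the submitters' processing notes, with no order. Whether counting used strand, and which annotation release it used, is not given in the sources used here. The authors' deposited table holds log2 fold changes, a score for their standard error and p-values with adjusted p-values per gene, per the file headers.

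The members and lists were chosen with earlier results of these data known, so their choice supports nothing. Member names came from the authors' table. Intronic counts were whole-gene minus exon counts. Counts were tested in edgeR 4.0.16 (R 4.3.3, limma 3.58.1) by the quasi-likelihood F test with TMM factors, filterByExpr (minimum count 10, minimum total 15), treatment as the only term and Benjamini-Hochberg adjustment over all genes tested. The exonic minus intronic difference was an interaction of read class and treatment, fitted to 16 columns (exonic and intronic for 8 libraries) with a library block. The script was tested on simulated data. CPM is a share of a library, so shifts of the RNA amount per cell are not visible. Alternatives were DESeq2 1.42.0, RLE factors, no filter, a replicate block, whole-gene counts, a test against 1.5-fold, leaving out Gm26917 and Gm42418 (ribosomal RNA overlap, 25.7 to 29.3% of exonic reads), other member thresholds and leaving out each library. Coordinates of genes are GENCODE vM21 on GRCm38, and promoter windows are RefSeq on GRCm38.p6.

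Named genes were up to 12 lower and 12 higher called members by size of change, the store-operated members, up to 5 members by smallest p in introns and in the difference, the 3 members and 3 name matches nearest the 0.5 CPM threshold, and up to 5 genes of each further list by smallest p. Members the rule would name but the text omits are counted and not reported here. Other genes are given by counts or as not past the threshold, or with values where a named gene's partner or family is described. Median standard errors were 0.07 in exons, 0.11 in introns and 0.12 for the difference on the log2 scale. PCR duplicates cannot be told from separate molecules here.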

Additional observations from a re-analysis of the deposited data

Results flagged for a closer look

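In 58 groups of 4 libraries screened, the farthest library was set against the range of its group. In 2 of the 58 groups it stood out, where chance gives about 1 in 20 groups. The count of such libraries was thus no higher than chance gives. For Ano6, dTAG-13 replicate 1 had 43.3 exonic CPM while the other dTAG-13 libraries had 37.0 to 37.6 CPM. Without that library Ano6 still fell, by 0.33 on the log2 scale (edgeR adjusted p = 4.62e-06, in a range of 2.18e-06 to 0.00363 over 14 alternatives). For Trpv2, DMSO replicate 4 had 35.3 exonic CPM while the other DMSO libraries had 33.1 CPM each. Without it Trpv2 rose by 0.69 on the log2 scale (adjusted p = 9.26e-11, in a range of 4.7e-35 to 1.76e-08 over 14 alternatives). The cause of either value was not tested.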

How the results depend on the processing

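Of 33 named values, 25 kept their direction and side of the threshold under every alternative run on them. The exceptions are given in the report beside those of their genes that it names, and 1 value reversed, Kcnq5, whose log2 fold change was -0.027 in whole-gene counts (edgeR adjusted p = 0.914, in a range of 0.00127 to 0.914 over 14 alternatives). Tested against 1.5-fold, which asks for a larger change, 3 members were lower and 1 higher in exons, against 3.13% of all genes tested. Intronic counts gave 3 lower and 2 higher members in that test, with the share over all genes not counted. Leaving out 1 library at a time gave 7 to 8 lower and 9 to 12 higher members in exons and 3 to 5 lower and 5 to 6 higher in introns, the 3 without DMSO replicate 4. For the exonic minus intronic difference it gave 0 to 1 lower members, the 1 being Kcnk10 without dTAG-13 replicate 1, and 1 with no filter on low counts (Kcnk10, adjusted p = 0.00495). The cause was not tested. Over all genes, leaving out 1 library gave 1592 to 1853 lower and 1667 to 1821 higher in exons. The alternative scalings (RLE factors, DESeq2, and without Gm26917 and Gm42418) moved the median of all genes by -0.0011 to -0.00021 on the log2 scale. Same-numbered libraries had correlations over genes of -0.02 to 0.05 in exons, and 2 of 4 dTAG-13 libraries were closest to their own number. Such a check cannot exclude weak pairing, so whether the numbers pair the samples is not known. With a replicate block the members count 8 lower and 12 higher in exons and 5 and 5 in introns, and 1869 lower and 1884 higher over all genes. Depth limits the low members most, with 0.41 as the standard error for Cacna2d4 and 0.37 for Kcnj14 on the log2 scale.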
